A study of Mus musculus with 18 samples.

Results

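The genes described here are 10 genes of the leukemia inhibitory factor (LIF) pathway of mouse embryonic stem (ES) cells: the receptor subunits Lifr and Il6st, the transcription factor Stat3, and Socs3, Bcl3, Icam1, Pim1, Pim3, Gbx2 and Pramel7, which are known or described as genes that STAT3 or LIF turns on. They were taken by name, with no threshold on measured values, though with earlier results of these data known. Their symbols matched 24 of the 34958 probe sets with 1 gene symbol, and 10 of the 18194 genes. Bcl3, Icam1 and Gbx2 had 1 probe set each. For each other gene the probe set with the highest mean log2 signal over all arrays stood for the gene.

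LIF is a cytokine added to cultures of mouse ES cells to hold them in the undifferentiated state. It brings the LIF receptor together with gp130, the protein of Il6st, and kinases of the JAK family bound to these receptors phosphorylate STAT3, which enters the nucleus and activates its target genes. Socs3, which encodes an inhibitor of the receptor and its kinases, is a direct STAT3 target and a classic rapid read-out of cytokine signalling.

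Total RNA from AB1 mouse ES cells was measured on 18 single-colour Affymetrix arrays, 1 per sample. The cells were wild type (Wt) or CYP26A1-/-, called knockout here, which lack Cyp26a1, a P450 enzyme that inactivates retinoic acid (RA), a vitamin A derivative. Each genotype had 3 arrays of control cells with LIF at 8 h, 3 arrays of cells given 100 nM RA with LIF for 8 h, 2 arrays of cells given 100 nM RA with LIF for 72 h, and 1 array of control cells labelled as without LIF for 8 h. The samples used here have no 72 h control, so a difference at 72 h holds both RA and time in culture. The labels do not say how many clones the knockout line represents, nor whether replicates came from separate cultures. All p-values below thus rest on the spread among these arrays alone, part of which may be technical.

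Values are linear signal units, and every array had a mean of 500 units after 2% was trimmed from each end. Array medians were 54.4 to 75.6 units. Signals under 50 units were set to 50 before log2 was taken, so the lowest values have no order. All 8 ES cell markers, among them Pou5f1 and Nanog, were detected. Of 8 fibroblast feeder markers, S100a4, Postn and Lum were under 100 units on all 18 arrays, and the summed signal of the list was 270 to 873 units on 17 arrays and 1374 units on wild-type RA 72 h replicate 2. Cyp26a1 was at 17.5 to 84.2 units on wild-type control arrays and at 9.81 to 52.6 units on knockout ones. After 8 h of RA its signal was 637 to 1695 units in wild-type and 193 to 216 units in knockout cells, ranges that did not overlap. After 72 h it was 3211 to 3402 units in wild-type and 2873 to 3075 units in knockout cells. Where its probes lie against the deleted part is not known here, so this signal does not check the genotype.

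Because STAT3 dimers bind the palindrome TTCNNNGAA, it was searched in the RefSeq promoter windows of the 10 genes, from 250 bases before to 50 after each annotated start on GRCm38.p6. The motif reads the same on both strands. It was present in 2 of the 12 windows of these genes, 1 each for Icam1 and Socs3, against 8.3% of all 32851 windows. The match started 42 bases before the start of Icam1 and 154 bases before the start of Socs3. Both stretches are shown as the only windows with a match. Bcl3, Stat3 and Pim3, which like these 2 genes carried low values on the control arrays described next, had no match. Each is written 5′ to 3′ on the gene's strand, with the motif in capitals. The Icam1 stretch is chr9:21015858-21015939 on the plus strand, and the Socs3 stretch is chr11:117969472-117969560 on the minus strand.
Icam1: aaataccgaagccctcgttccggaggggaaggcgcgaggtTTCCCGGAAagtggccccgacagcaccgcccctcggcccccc
Socs3: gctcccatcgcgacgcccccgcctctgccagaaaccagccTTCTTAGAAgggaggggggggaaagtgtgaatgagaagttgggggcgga
A match is a description of the sequence and does not show that STAT3 binds there.

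The control arrays did not follow their LIF labels. Socs3 was at 367.5 units on the wild-type replicate 1 array labelled with LIF, against 4484 and 3792 units on replicates 2 and 3 and 3800 units on the wild-type array that the labels give as without LIF. In knockout cells Socs3 was at 215.3 units on the replicate 1 array labelled with LIF, against 6001 and 5722 units on replicates 2 and 3 and 4551 units without LIF by label. On the other 16 arrays its signal was 2628 to 6001 units, with a median of 3929. Thus 1 array of each genotype labelled with LIF had the low signal of this STAT3 target, and the arrays labelled without LIF read close to the other controls. The cause was not tested, the labels were kept as given, and differences from control of the genes low on these 2 arrays are given with and without them. These genes picked out the 2 arrays, so their p-values in fits without them are a description and not a separate test.

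Bcl3, an atypical member of the IκB family that acts in the nucleus, followed the same order. Its signal was 141 units on the wild-type replicate 1 array, against 914 and 980 units on replicates 2 and 3 and 1200 units without LIF by label. In knockout cells the corresponding values were 215 units, against 971, 1127 and 1197 units. The arrays labelled without LIF were the highest of the 4 control arrays in both genotypes.

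Stat3 itself, which is known to be activated by its own protein, was at 473 units on the wild-type replicate 1 array, 1449 and 3021 units on replicates 2 and 3, and 1589 units without LIF by label. The knockout values were 351 units on replicate 1, 1519 and 2983 units on replicates 2 and 3, and 1546 units without LIF by label. A second Stat3 probe set had the same low arrays, at 422 units in wild-type and 585 units in knockout cells. Replicate 3 of both genotypes was high on the brighter probe set and not on the second one, whose signal there was 1609 units (wild type) and 1649 units (knockout).

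Pim3, a serine/threonine kinase that promotes growth and survival, was at 3251 units on the wild-type replicate 1 array, 9073 and 8903 units on replicates 2 and 3, and 7049 units without LIF by label. In knockout cells it was at 3128 units on replicate 1, 11840 and 9392 units on replicates 2 and 3, and 7994 units without LIF by label. Icam1, the cell adhesion molecule that binds leukocyte integrins, was at 598 units on wild-type replicate 1, 1504 and 1128 units on replicates 2 and 3, and 1918 units without LIF by label. Its knockout values were 764 units on replicate 1, 2076 and 1720 units on replicates 2 and 3, and 2009 units without LIF by label. For both genes the replicate 1 array was the lowest control array of its genotype.

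The receptor subunits and the remaining targets did not share this gap. Lifr, the ligand-binding subunit, was at 2027, 2525 and 2028 units on the wild-type arrays labelled with LIF and at 2073 units without it. Il6st, the shared signalling subunit of the IL-6 cytokine family, was at 778, 695 and 764 units with LIF and at 851 units without LIF by label in wild-type cells. Pim1, a kinase related to Pim3, was at 634, 746 and 507 units with LIF and at 584 units without. Gbx2, a homeobox transcription factor that can sustain ES cell self-renewal, was at 2223, 2117 and 3472 units with LIF and at 3410 units without. In knockout cells the replicate 1 array minus the lowest of the other 3 control arrays was between -0.27 and 0.26 on the log2 scale for these 4 genes. Pramel7, a gene of the Prame-like family expressed in the inner cell mass, was under 100 units on all 8 control arrays.

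**Figure D1:**
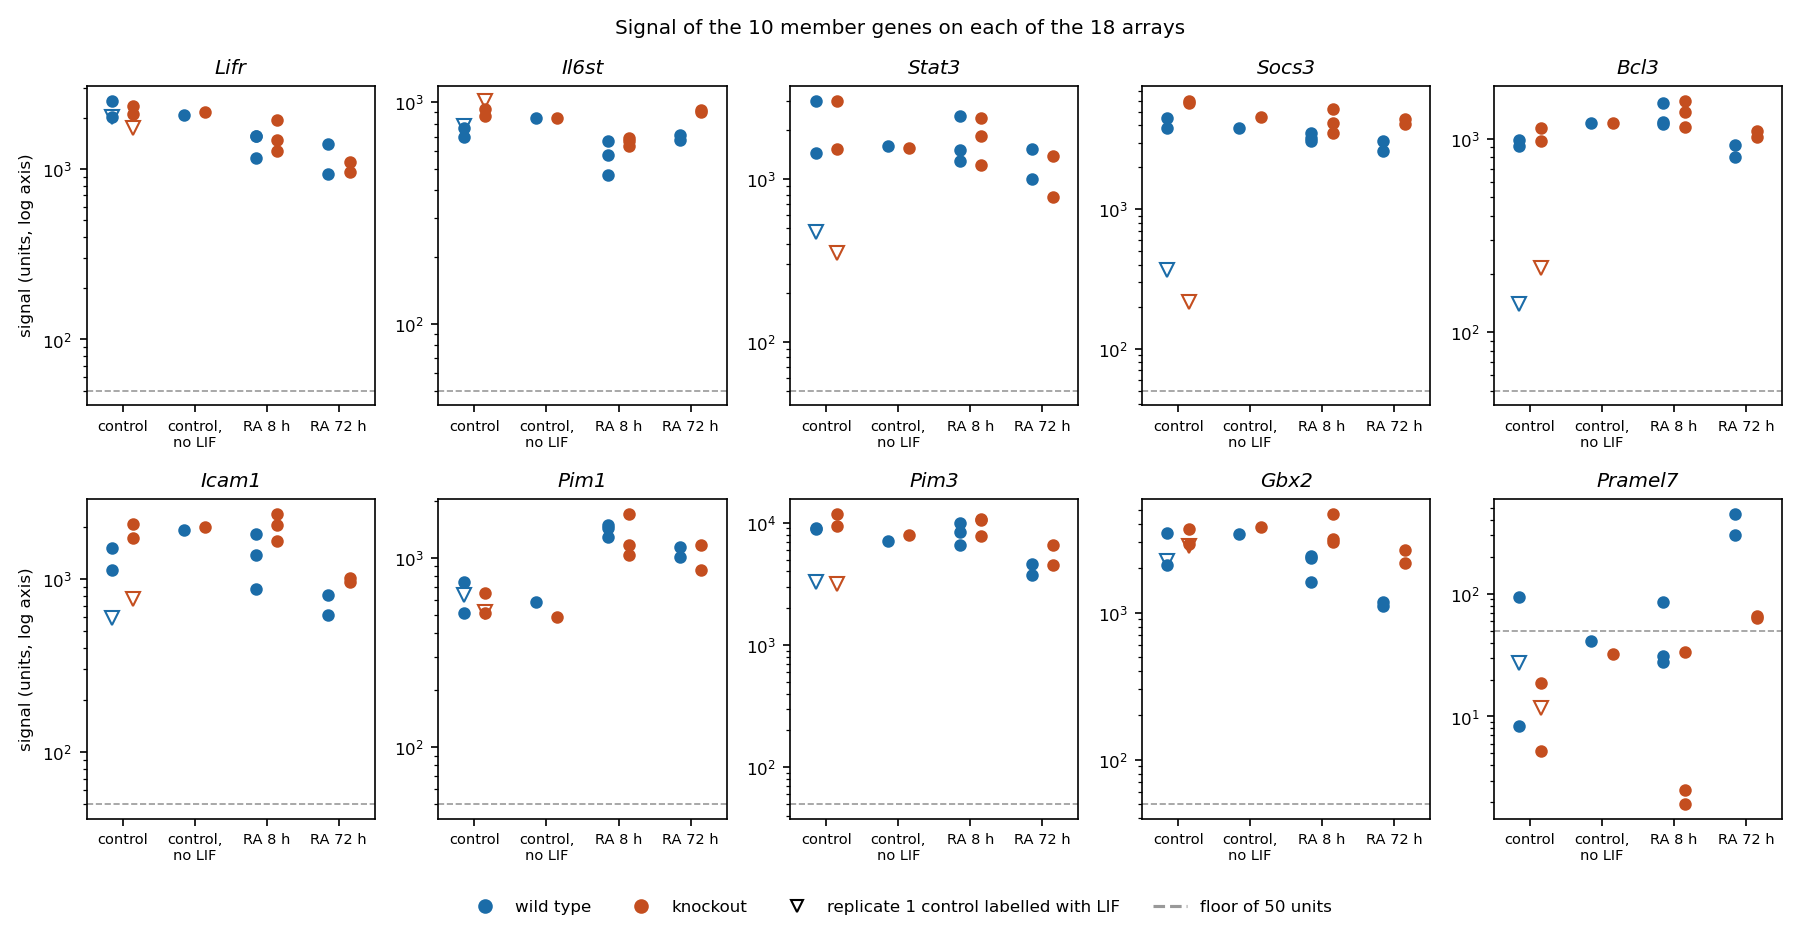
Signal of each gene on the 18 arrays (linear units, log axis), by treatment label, with genotype and replicate marked and a dashed line at the floor of 50 units. The replicate 1 control arrays labelled with LIF stand low for Socs3 (367.5 and 215.3 units), Bcl3, Stat3, Pim3 and Icam1, and the arrays labelled without LIF do not.

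The gap was taken as the log2 signal of the replicate 1 array minus that of the lowest of the other 3 control arrays of its genotype. For Socs3 it was -3.37 in wild-type and -4.40 in knockout cells. The gap of Bcl3 was -2.70 and -2.18, that of Stat3 -1.62 and -2.12, that of Pim3 -1.12 and -1.35, and that of Icam1 -0.92 and -1.17. On the replicate 1 arrays of both genotypes 6 of the 9 genes with a value were the lowest, Lifr with a gap of only -0.0009 in wild-type cells, against 9.32% of 10476 genes. A gap beyond 1 in both genotypes was present for 4 of the 9, Socs3, Bcl3, Stat3 and Pim3, against 31 genes or 0.296% of all. None of the 9 was the highest in both genotypes, where 12.5% of all genes were. The 2 arrays were picked out by these same genes, so the counts are a description.

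Other genes of the pathway were lower on the same arrays. Of 35 listed pathway genes with a value, 12 were lowest on both replicate 1 arrays (9.32% of all genes were), 2 of them by more than 1 on the log2 scale (0.296% of all genes), the immediate early genes Junb and Fos. The transcription factor gene Stat4 and the inhibitor gene Socs6, 2 of the 35, were highest on both (12.5% of all genes), Socs6 by 0.0041 in wild-type cells. Klf4, a pluripotency factor downstream of STAT3, was at 3154 units on wild-type replicate 1, 5968 and 8474 units on replicates 2 and 3 and 6687 units without LIF by label. In knockout cells Klf4 was at 4127 units, against 8573, 10120 and 11140 units. Tfcp2l1, a pluripotency factor that STAT3 activates, was at 1673 units on wild-type replicate 1 against 2866, 4308 and 3502 units, and at 1887 units on knockout replicate 1 against 3833, 3637 and 3955 units. For these 2 genes, too, no array labelled without LIF was the lowest of its genotype.

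Outside the list, the genes whose gap in both genotypes was most like that of Socs3 were Xaf1, with gaps of -2.94 in wild-type and -2.69 in knockout cells, Lama1 with -2.06 and -2.58, Gjb5 with -1.89 and -2.46, and Pla2g7 with -2.69 and -1.88. In the opposite direction, both replicate 1 arrays were above the highest of the other 3 control arrays, by at least 1.24 for Cass4 and at least 1.22 for Efnb2. Lama1 also belongs to the list of extraembryonic endoderm markers. The summed signal of that list, Lama1 included, was 2551 units on wild-type and 1385 units on knockout replicate 1. It was 3279 to 7434 units on the other wild-type control arrays and 2749 to 3330 units on the knockout ones. Lama1 alone was at 410 units on wild-type replicate 1, against 1705 to 2555 units on the others. In knockout cells it was at 272 units, against 1633 to 1875 units. As Lama1 was named for its gap, the sum does not show whether the other markers of the list were lower there. ES cell markers summed to 75840 units on wild-type replicate 1 against 84450 to 86950 units on the others, and to 90200 units on knockout replicate 1 against 94860 to 99930 units. The part of these markers in the gaps was not tested. In bulk RNA, fewer cells of a type and less RNA per cell cannot be told apart.

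**Figure D2:**
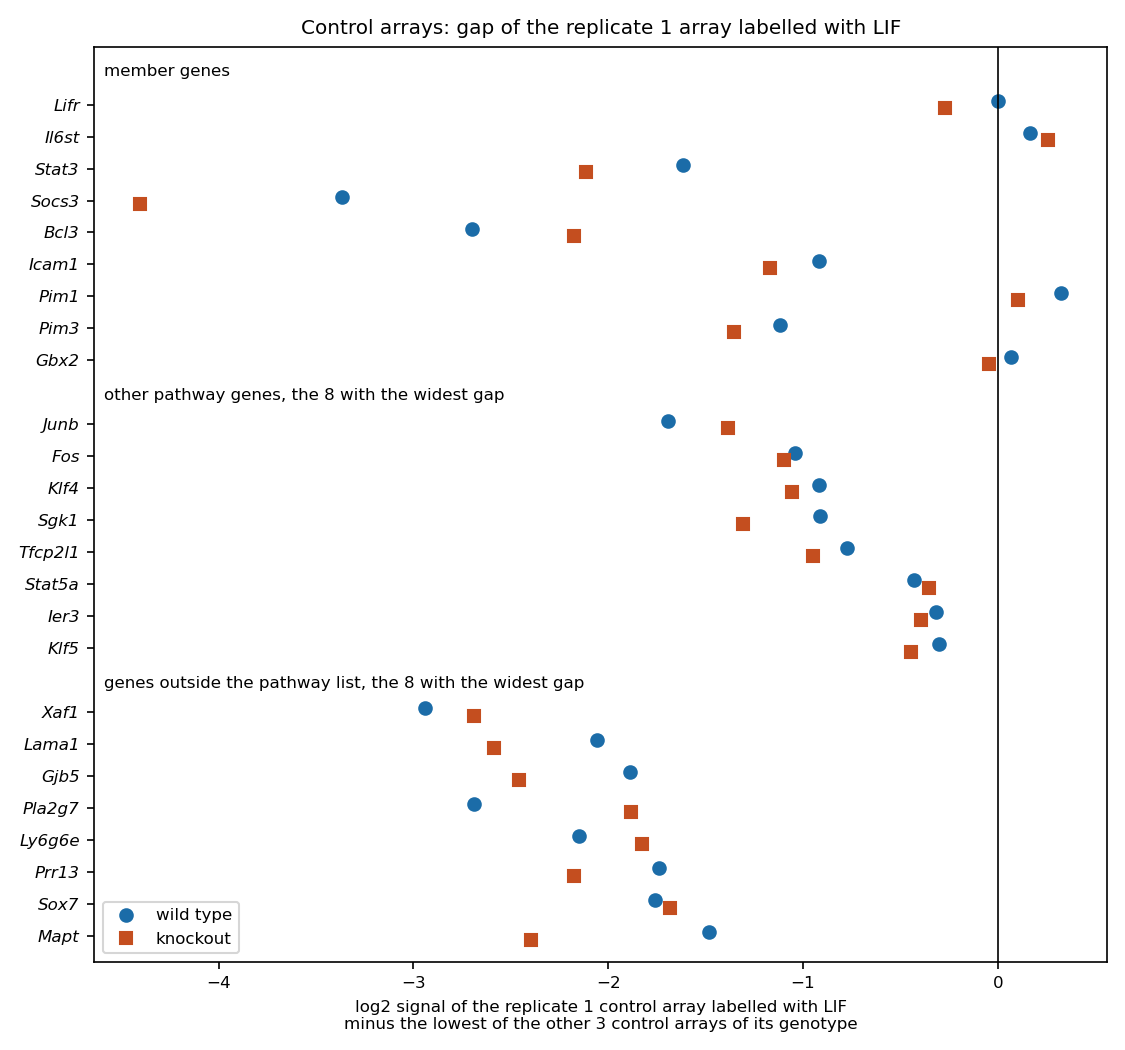
Log2 signal of the replicate 1 control array labelled with LIF minus the lowest of the other 3 control arrays of its genotype. Shown are the 9 genes with a value, the other pathway genes with the widest gaps, and the genes outside the pathway list with the widest gaps. Of 35 listed pathway genes with a value, 12 were lowest on both replicate 1 arrays, so the pathway genes shown are not typical of the list. Points left of 0 were lowest on replicate 1. Socs3 lies farthest to the left, at -3.37 in wild-type and -4.40 in knockout cells.

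Taken by label, no difference between arrays without and with LIF passed the test. With limma on the 8 control arrays and a term for genotype, 0 of 9 genes were called at an adjusted p under 0.05 and 0 at an unadjusted p under 0.05, while 0% of 10476 genes were called. Socs3 differed by 1.13 ± 1.25 (log2, without minus with LIF by label, SE) and Bcl3 by 1.11 ± 0.77. With both replicate 1 control arrays left out, again 0 genes were called, and Socs3 differed by -0.24 ± 0.12, Bcl3 by 0.27 ± 0.13 and Pim3 by -0.38 ± 0.11 (limma adjusted p = 0.894 for Pim3). With the replicate number as a block, 6 of the 9 were higher on the arrays labelled without LIF, against 1.46% of all genes higher. Socs3 differed by 3.89 ± 0.24 in that fit (limma adjusted p = 4.51e-06), Bcl3 by 2.79 ± 0.17 (4.51e-06), Stat3 by 1.94 ± 0.14 (1.16e-05), Icam1 by 1.54 ± 0.14 (0.000106), Pim3 by 1.24 ± 0.11 (8.82e-05) and Gbx2 by 0.53 ± 0.11 (0.0280). The block sets the arrays without LIF against replicate 1 alone, the arrays picked out above by low values of these same genes. The count and p-values of that fit thus restate the gap and are not a separate test. The labels give the arrays without LIF no number, and the wild-type replicate 1 was numbered in accession order.

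After 8 h of RA, Pim1 rose in both genotypes. In wild-type cells it was at 634, 746 and 507 units on control arrays and at 1487, 1433 and 1281 units with RA. In knockout cells it went from 518, 512 and 646 units to 1036, 1165 and 1703 units. The groups did not overlap in either genotype. The log2 change was 1.17 ± 0.19 in wild-type cells (limma, 3 arrays a group, adjusted p = 0.00646, 2.25-fold) and 1.19 ± 0.19 in knockout cells (0.00734, 2.29-fold). With both replicate 1 control arrays left out it was 1.18 ± 0.23 (0.0291) and 1.14 ± 0.23 (0.0389). When only the groups compared entered the fit, the wild-type adjusted p was 0.0512. Pim1 was the 1 gene of the 10 called in each genotype, against 0.904% of 11388 genes in wild-type and 0.957% in knockout cells.

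A dimmer Pim1 probe set, at 98.5 to 240 units on control arrays and 266 to 635 units after 8 h of RA, had changes of 1.12 ± 0.32 in wild-type and 1.47 ± 0.32 in knockout cells. Fitted over all probe sets, limma gave adjusted p-values of 0.247 and 0.0674 for these.

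The receptor subunits had lower values with RA at 8 h that did not pass the test. Lifr was at 1569, 1562 and 1161 units in wild-type cells with RA, below every control array. The difference was -0.62 ± 0.19 (limma adjusted p = 0.209), -0.68 ± 0.21 without the replicate 1 controls (0.278), and with the replicate number as a block, where 2.41% of all genes were called, it fell by 0.62 ± 0.12 (0.0130). In knockout cells Lifr was at 1483, 1930 and 1276 units with RA, which overlaps the control range of 1744 to 2359 units, and differed by -0.41 ± 0.19 (0.554). Il6st was at 578, 666 and 471 units with RA in wild-type cells and differed by -0.40 ± 0.13 (0.297). In knockout cells Il6st was at 1018, 870 and 936 units on control arrays and at 691, 634 and 672 units with RA. Its difference was -0.50 ± 0.13 (limma adjusted p = 0.116), and with the replicate block, where 3.0% of all genes were called, it fell by 0.50 ± 0.12 (0.0449).

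For Socs3, Stat3 and Pim3, the 8 h difference changed sign when the replicate 1 controls were left out. Socs3 was at 3102, 3250 and 3528 units with RA in wild-type cells and at 3525, 5233 and 4109 units in knockout cells. Its difference from control was 0.84 ± 1.02 and 1.12 ± 1.02 with all arrays, and -0.33 ± 0.15 and -0.47 ± 0.15 with the replicate 1 controls left out. Stat3 differed by 0.39 ± 0.67 and 0.58 ± 0.67, and by -0.33 ± 0.41 and -0.29 ± 0.41 without them. Pim3 differed by 0.36 ± 0.43 and 0.44 ± 0.43, and by -0.13 ± 0.20 and -0.14 ± 0.20 without them. None of these passed the limma test in either setting. Icam1, at 1818, 1382 and 876 units with RA in wild-type and 2046, 2388 and 1654 units in knockout cells, differed by 0.37 ± 0.37 and 0.52 ± 0.37. Without the replicate 1 controls it differed by -0.0018 ± 0.26 and 0.087 ± 0.26, also not called.

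Bcl3 kept its sign. It was at 1534, 1222 and 1190 units with RA in wild-type cells and at 1571, 1148 and 1365 units in knockout cells, above every control array labelled with LIF in both genotypes. The difference was 1.38 ± 0.63 in wild-type (limma adjusted p = 0.607) and 1.13 ± 0.63 in knockout cells (0.708). Without the replicate 1 controls it was 0.47 ± 0.16 and 0.37 ± 0.16. The arrays labelled without LIF, at 1200 and 1197 units, reached into the RA range. Gbx2 differed by -0.28 ± 0.21 in wild-type and 0.19 ± 0.21 in knockout cells.

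At 72 h of RA, Lifr fell and Pim1 rose in both genotypes. Lifr was at 932 and 1399 units in wild-type and at 964 and 1095 units in knockout cells, below every control array. Lifr fell by 0.93 ± 0.21 in wild-type cells (limma, 2 arrays against 3, adjusted p = 0.00470) and by 0.999 ± 0.212 in knockout cells (0.00322). Pim1 was at 1003 and 1139 units in wild-type and at 860 and 1161 units in knockout cells, above every control array. It rose by 0.78 ± 0.22 (0.0151) and 0.85 ± 0.22 (0.0106).

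Apart from that of Lifr in knockout cells, these calls leaned on single arrays. Without wild-type RA 72 h replicate 1, Lifr differed by -0.64 (adjusted p = 0.104). Pim1 in wild-type cells had an adjusted p of 0.0540 without RA 72 h replicate 1, 0.125 without replicate 2 and 0.0524 without control replicate 3. With the mean of all probe sets standing for each gene, Pim1 in wild-type cells differed by 0.66 (adjusted p = 0.0892). In knockout cells Pim1 differed by 0.63 without RA 72 h replicate 2 (0.149). Without both replicate 1 control arrays, Lifr and Pim1 stayed called in both genotypes, with Lifr at -0.99 ± 0.23 (0.00864) and -1.12 ± 0.23 (0.00422) and Pim1 at 0.80 ± 0.25 in each (0.0355 and 0.0387).

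Gbx2 also fell in wild-type cells, and Pramel7 was detected there. Gbx2 was at 1114 and 1179 units there after 72 h of RA, below every control array, and fell by 1.15 ± 0.24 (limma adjusted p = 0.00251). In knockout cells Gbx2 was at 2641 and 2183 units against control values of 2815, 2908 and 3713 units, a difference of -0.38 ± 0.24 (0.285). Pramel7 was at 302 and 449 units in wild-type cells after 72 h of RA, against 27.2, 94.1 and 8.31 units on control arrays and 31.0, 86.4 and 27.8 units after 8 h. These 2 arrays are the only ones of the 18 at 100 units or more, so Pramel7 passed the filter on dim genes through the group in which it was high. Its differences are therefore given as values, with no test read. A second Pramel7 probe set was at 150 and 349 units on the same 2 arrays. In knockout cells Pramel7 was at 62.9 and 66.5 units at 72 h, with every control array under the floor.

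With Pramel7 set aside, 1 of 9 genes rose and 2 fell in wild-type cells at 72 h, against 16.1% and 8.64% of all genes (24.7% in either direction). In knockout cells 1 rose and 1 fell, against 14.8% and 8.26% (23.0%). With the replicate 1 controls left out the calls were 7 in wild-type cells, Pramel7 included though not read, and 4 in knockout cells. The background was 21.2% and 19.3% of all genes. Those 2 arrays were picked out by low values of Socs3, Bcl3, Stat3, Pim3 and Icam1. Calls of these genes without them, and the counts that hold them, are thus a description and not a test. Pim3 was at 3755 and 4587 units in wild-type and 4511 and 6559 units in knockout cells, and in that setting fell by 1.11 ± 0.22 (limma adjusted p = 0.00308) and 0.96 ± 0.22 (0.00827). With all arrays Pim3 differed by -0.63 ± 0.48 and -0.37 ± 0.48 and was not called. Icam1 was at 812 and 622 units and at 958 and 1017 units, and fell by 0.87 ± 0.28 (0.0432) and 0.94 ± 0.28 (0.0342). With all arrays Icam1 differed by -0.50 ± 0.41 in each genotype and was not called. Socs3 was at 2628 and 3088 units and at 4058 and 4432 units. Socs3 fell by 0.53 ± 0.17 in wild-type cells (0.0349) and differed by -0.47 ± 0.17 in knockout cells (0.0659). With all arrays Socs3 differed by 0.63 in wild-type and 1.12 in knockout cells and was not called.

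Stat3 was at 1531 and 1001 units in wild-type and 773 and 1379 units in knockout cells at 72 h, and its brighter probe set did not pass the test. It differed by -0.04 ± 0.75 and -0.18 ± 0.75 with all arrays, and by -0.76 ± 0.44 and -1.04 ± 0.44 without the replicate 1 controls. The second Stat3 probe set, at 1202 and 1061 units in knockout cells, fell by 0.64 ± 0.16 there without the replicate 1 controls (limma adjusted p = 0.0182) and differed by -0.50 ± 0.16 in wild-type cells (0.0546). With all arrays it differed by -0.11 ± 0.50 and 0.13 ± 0.50. Low Stat3 values helped to pick out the replicate 1 controls, so the call of this probe set without them is a description and not a test. Il6st differed by -0.11 ± 0.15 in wild-type and -0.04 ± 0.15 in knockout cells. Bcl3, at 923 and 805 units and at 1019 and 1089 units, differed by 0.78 ± 0.70 and 0.77 ± 0.70 with all arrays, and by -0.13 ± 0.18 and 0.01 ± 0.18 without the replicate 1 controls.

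**Figure D3:**
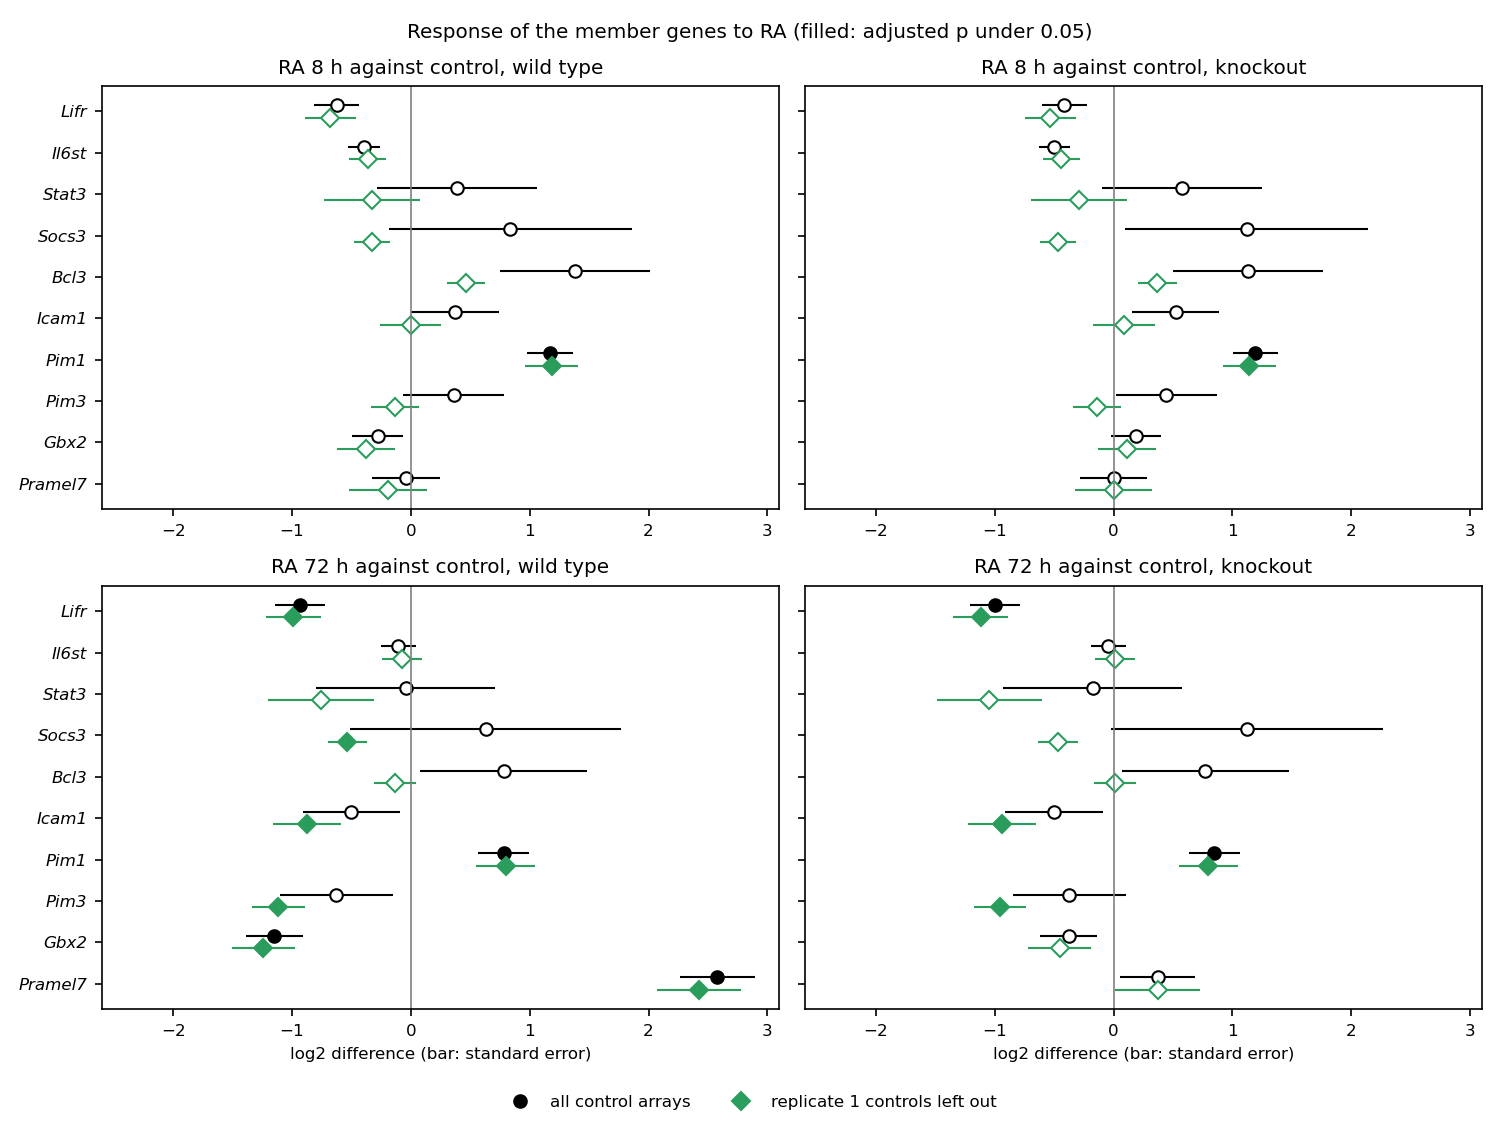
Log2 change of each gene with RA against control at 8 h and 72 h in each genotype, with standard errors, with all arrays and with both replicate 1 control arrays left out. Filled points passed an adjusted p under 0.05. The filled points of Pramel7, and those of Socs3, Pim3 and Icam1 without the replicate 1 controls, are not read as tests. Pim1 is to the right of 0 in all panels, at 0.78 to 1.19 with all arrays, and Socs3 crosses 0 when the replicate 1 controls are left out.

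The 72 h and 8 h RA arrays were also compared directly, a contrast with no control array, added after the data were seen. In wild-type cells Gbx2 fell by 0.87 ± 0.24 (limma adjusted p = 0.0159), 1 of 9 genes with Pramel7 set aside, against 22.3% of all genes. In knockout cells Il6st rose by 0.45 ± 0.15 (0.0441), 1 of 9 genes with Pramel7 again set aside, against 19.2%. Its adjusted p was 0.0554 in the fit without the replicate 1 controls, which enter only through the shared spread and in which 22.7% of all genes were called in wild-type and 19.4% in knockout cells. In that fit Pim3 fell by 0.99 ± 0.20 (0.00351) and Icam1 by 0.87 ± 0.26 (0.0277) in wild-type cells, and Pim3 fell by 0.82 ± 0.20 (0.0126) and Icam1 by 1.02 ± 0.26 (0.0142) in knockout cells. Bcl3 fell by 0.60 ± 0.16 (0.0171) in wild-type cells there. Leaving out arrays that Pim3, Icam1 and Bcl3 helped to pick out narrows the spread of these genes, so their calls in that fit are a description. With the replicate block, where 31.3% and 27.7% of all genes were called, Lifr fell by 0.39 in wild-type (0.0463) and 0.66 in knockout cells (0.00282). In that fit Pim3 fell by 0.85 in wild-type cells (0.0345).

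The cell markers moved at 72 h as well. Of 8 ES cell markers 4 fell in each genotype, against 8.64% and 8.26% of all genes, and their summed signal was 58470 to 62110 units against 75840 to 84720 units on wild-type control arrays, and 79800 to 85180 units against 90200 to 96660 units on knockout ones. Of 11 extraembryonic endoderm markers tested, 10 rose in each genotype, against 16.1% and 14.8% of all genes. The summed signal of the 12 measured went from 2551 to 7434 units on control arrays to 14230 to 20120 units at 72 h in wild-type cells. In knockout cells it went from 1385 to 3330 units to 13400 to 14540 units. Afp was under 100 units on all arrays. Wild-type RA 72 h replicate 2 stood apart in the fibroblast markers, which summed to 1374 units there, 364 units on replicate 1 and 270 to 281 units on the knockout 72 h arrays. Without that array Lifr differed by -1.23 (limma adjusted p = 0.00456) and Gbx2 by -1.19 (0.0207) from control in wild-type cells. The part of these markers in the 72 h differences was not tested.

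Between genotypes, 0 of the 10 genes passed the limma test in control cells and 0 after 8 h of RA, with 1 of 10 at an unadjusted p under 0.05 in each. The background was 4.64% of all genes in control cells and 4.61% after 8 h. Gbx2 after 8 h of RA was at 2414, 1624 and 2329 units in wild-type and at 4689, 3179 and 3019 units in knockout cells, which did not overlap. Its difference was 0.77 ± 0.21 (knockout minus wild type, limma adjusted p = 0.0522), and with the replicate block, where 9.78% of all genes were called, it was higher by 0.77 ± 0.18 (0.0128).

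After 72 h of RA, with Pramel7 set aside, Gbx2 was the 1 gene called between genotypes, against 4.07% of all genes. It was higher in knockout cells, where 1.39% of all genes were higher and 2.68% lower. Pramel7 was lower, but it passed the filter only through the wild-type arrays and its test is not read. Gbx2 was higher by 1.07 ± 0.26 (limma, 2 arrays a group, adjusted p = 0.0291, 2.10-fold). Pramel7 was at 302 and 449 units in wild-type and at 62.9 and 66.5 units in knockout cells. In each case the 2 arrays of a genotype lay apart from the 2 of the other. Gbx2 lost its call when any of the 4 RA 72 h arrays was left out, with adjusted p-values from 0.0904 to 0.222. Socs3, at 2628 and 3088 units in wild-type and 4058 and 4432 units in knockout cells, did not overlap either. The same held for Il6st (672.5 to 712.6 units in wild-type, 900.5 to 921.0 in knockout cells), Bcl3 (805.3 to 923.1, 1019 to 1089) and Icam1 (622.2 to 812.0, 957.6 to 1017). Lifr, Stat3, Pim1 and Pim3 overlapped. The share of all genes separated in this way was not counted, and 2 arrays a group separate easily. These separations are therefore given as values and not as a result about the genes. Socs3 was called when only the groups compared entered the fit, where it was higher by 0.57 ± 0.13 (limma adjusted p = 0.0373). With all arrays the difference was 0.57 ± 1.25 (0.905). The smaller fit leaves out the replicate 1 controls, which low Socs3 values helped to pick out. That call is thus a description and not a separate test, and the share of all genes called in that fit was not counted.

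The difference between genotypes in the 72 h change was tested directly. It was 0.77 ± 0.33 for Gbx2 (limma adjusted p = 0.822). Of the 10 genes 0 passed, and 0.342% of all genes passed. Gbx2 and Pramel7 had an unadjusted p under 0.05, and that of Pramel7 is not read. With the replicate block 1 passed, Pramel7, against 0.492% of all genes, and its test is not read for the reason given above. For the 8 h change 0 of the 10 genes passed, 0 had an unadjusted p under 0.05, and 0% of all genes passed.

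**Figure D4:**
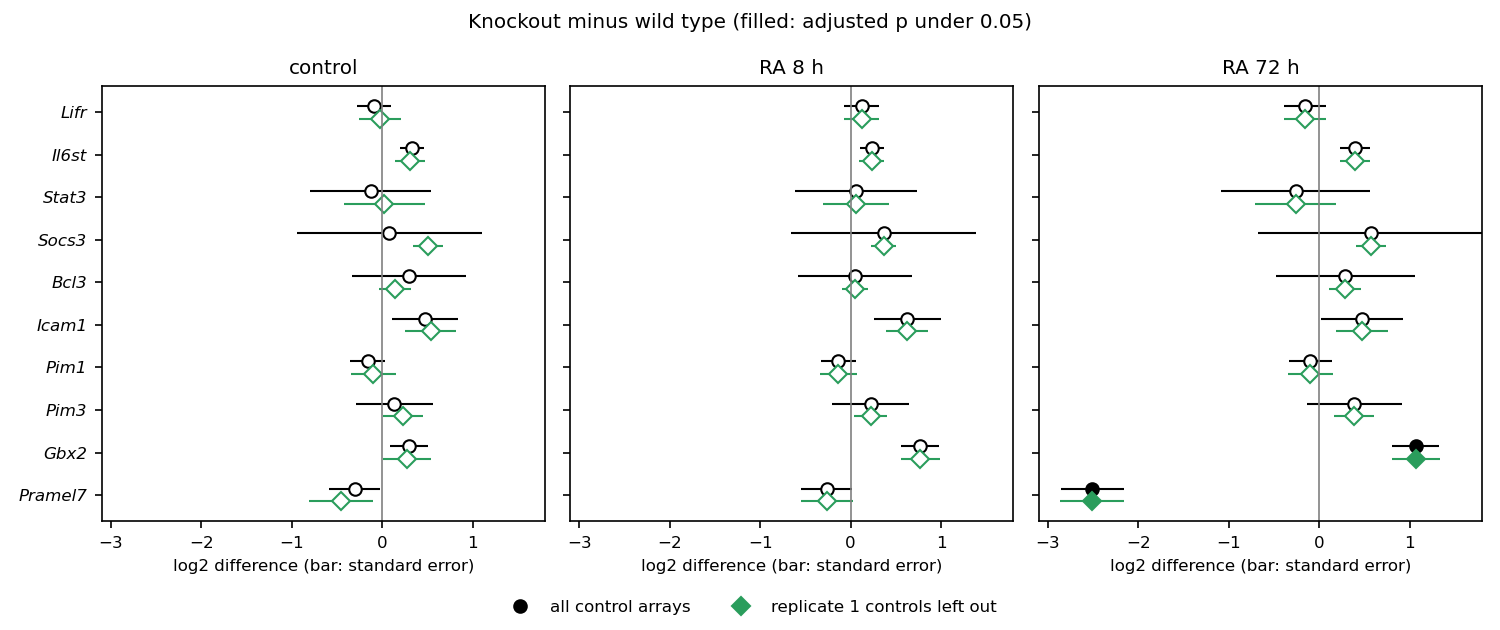
Log2 difference of each gene, knockout minus wild type, in control cells and after 8 h and 72 h of RA, with standard errors, with all arrays and with both replicate 1 control arrays left out. Filled points passed an adjusted p under 0.05, which at 72 h are Gbx2 at 1.07 and Pramel7 at -2.51. Pramel7 passed the filter on dim genes only through the wild-type 72 h arrays, so its filled point is not read as a test.

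A wider list of ligands, receptors, kinases, inhibitors and targets of the pathway held 46 genes, of which 37 were tested. After 8 h of RA 0 of the 37 passed the limma test in either genotype, against 0.904% of all genes in wild-type and 0.957% in knockout cells. In each genotype 5 had an unadjusted p under 0.05. At 72 h in wild-type cells 3 of the 37 rose and 2 fell, against 16.1% and 8.64% of all genes. The kinases Jak1 and Jak2, which act directly below the receptors, rose by 0.79 ± 0.15 (limma adjusted p = 0.00132) and 1.04 ± 0.20 (0.00174), and Stat5b, a related transcription factor, by 1.16 ± 0.24 (0.00245). Socs2, an inhibitor related to Socs3, fell by 2.34 ± 0.24 (6.11e-06), and Myc, a growth-promoting transcription factor that STAT3 activates in ES cells, by 1.25 ± 0.24 (0.00171).

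In knockout cells at 72 h 4 rose, these kinases, Stat5b and the receptor gene Cntfr, and 3 fell, Socs2, Myc and the kinase Sgk1, against 14.8% and 8.26% of all genes. Without the replicate 1 controls 3 rose and 3 fell in wild-type cells, against 14.3% and 6.98% of all genes. In knockout cells 4 rose and 4 fell in that setting, against 12.8% and 6.47%. Sgk1, at 5950 units on knockout control replicate 1 and 14710 and 14940 units on replicates 2 and 3, fell by 1.26 ± 0.36 in knockout cells with all arrays (0.0196) and by 1.70 ± 0.15 without them (6.75e-06). In wild-type cells it differed by -0.25 ± 0.36 with all arrays and fell by 0.63 ± 0.15 without them (0.0104). Sgk1 was itself lowest on both replicate 1 control arrays, with gaps of -0.91 in wild-type and -1.31 in knockout cells. Its calls without them, and the pathway counts that hold these calls, are thus a description and not a test. Socs2 was at 343 and 627 units in wild-type and at 1412 and 970 units in knockout cells at 72 h, and was higher in knockout cells by 1.34 ± 0.26 (limma adjusted p = 0.00828). It was 1 of 37 pathway genes called there, against 4.07% of all genes. Without the replicate 1 controls Socs2 was 1 of 2 called, against 4.24% of all genes, and Sgk1 was lower by 0.71 ± 0.15 (0.0185). That Sgk1 call is a description for the same reason. Over the 10 LIF and STAT3 genes the median 72 h change was -0.07 in wild-type and -0.11 in knockout cells, against 0.064 and 0.056 over all genes tested. Without the replicate 1 controls it was -0.65 and -0.46, against 0.077 and 0.064. Those arrays were picked out by low values of some of these genes, so this shift is a description.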

How the data were processed

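The authors deposited 1 table of linear signal intensity for 45101 probe sets on 18 arrays, made with MAS5 per the submitters' processing notes. The MAS5 version is not given in the sources used here. The 2% trimmed mean of the table was 500 on every array, so no further scaling was applied. The platform annotation gave 34958 probe sets 1 symbol and 932 several, and did not list 9211, and 34754 matched RefSeq by Entrez ID. Values were floored at 50 units (41.6 to 48.3% of probe sets per array) and taken to log2, and the probe set with the highest mean log2 value stood for its gene. Genes at 100 units or more on at least 2 arrays of a fit entered a limma fit (version 3.58.1, R 4.3.3, lmFit, then eBayes with a trend), 1 mean per group over 16 arrays (11388 genes), and for LIF over the 8 control arrays with a genotype term (10476 genes). All 10 genes passed this filter in the 16 arrays, Pramel7 only through the wild-type 72 h arrays, and 9 in the control arrays. P-values were adjusted by Benjamini-Hochberg over all genes, with a threshold of 0.05. Errors are standard errors of the fit. The code was tested on simulated data. The number of arrays limits the precision.

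The 10 genes and the marker and pathway lists were chosen with earlier results of these data known. All 10 genes were described, and other genes were named from the pathway list where called and from the ranking of control array gaps. Titles number knockout replicates 2 and 3, wild-type replicate 3 and the 72 h replicate 2 arrays. Where 1 array of a group was left it was called replicate 1, and wild-type 1 and 2 at 8 h were numbered in accession order. The arrays without LIF carry no number. Same-numbered arrays of different groups deviated together in all 20 correlations (0.136 to 0.504), so a fit with the number as a block was run. No 2 arrays held identical values, and pairwise correlations were 0.956 to 0.991. Alternatives were another floor, no filter, the mean of probe sets, quantile normalization, only the groups compared, each array left out, and both replicate 1 control arrays left out.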

Additional observations from a re-analysis of the deposited data

How the results depend on the processing

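Counts below are of the 10 LIF and STAT3 genes called by limma. After 8 h of RA 1 was called in each genotype, 0 in wild-type cells when only the groups compared entered the fit, and 2 in each genotype with the replicate block (Lifr and Il6st were added). At 72 h of RA the counts of 4 in wild-type and 2 in knockout cells became 7 and 4 without both replicate 1 control arrays, and the wild-type count was 3 with the mean of all probe sets, where Pim1 was lost. Knockout against wild type after 8 h of RA gave 0, and 1 with the replicate block. After 72 h it gave 2, and 1 with no filter on dim genes, where Gbx2 was lost, and 3 with only the groups compared, where Socs3 was added. The genotype difference of the 72 h change gave 0, and 1 (Pramel7) with a floor of 100, the mean of probe sets, no filter or the replicate block. Pramel7 enters these counts only through the wild-type 72 h arrays. By LIF label it gave 0, and 6 with the replicate block, and the block changed no other call in these comparisons. Socs3 at 72 h in wild-type cells reversed, from 0.63 to -0.53, without the replicate 1 controls. Low values of these genes picked out the replicate 1 controls. Counts without those arrays, the LIF count with the block, and the Socs3 call at 72 h with only the groups compared are thus a description. With each array left out in turn the counts ran from 1 to 1 at 8 h in both genotypes, 1 to 4 in wild-type and 1 to 2 in knockout cells at 72 h, 0 to 1 for knockout against wild type at 72 h, 0 to 1 for the genotype difference of the 72 h change, and 0 to 0 for the others. A group left with 1 array is assumed to vary like the other groups. Pramel7 failed the filter when a wild-type 72 h array was left out, so it has no value there and is not counted as a lost call. Of 126 called values compared over these alternatives, 114 stayed called with the same sign, 12 lost the call and 0 changed sign. Uncalled values that became called numbered 19. These tallies include Pramel7, whose test is not read and which has no value in fits where it failed the filter. They also include the fits without the replicate 1 controls and with the block, so they are a description and not a measure of how firm the calls are. Called genes between genotypes in control cells numbered 528 with all arrays and 139 without the replicate 1 controls. Low signal limits Pramel7, whose control values lie near or under the floor.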
